A study of Bubalus bubalis with 12 samples.

Results

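Mucins and secreted defence proteins of mucosal surfaces were examined in the rumen wall of dairy buffaloes. The genes were MUC1, MUC4, MUC15, MUC16, MUC20, PIGR, DMBT1 and LTF, and a row was taken when its gene name was the same as one of these 8 names. A row was found for 7 of the 8 genes, among 34037 rows of the table, and 22972 of all rows had a value above 0 in 1 animal or more. No row had the name MUC16, which was not analysed here. The samples came from 12 Italian Mediterranean dairy buffaloes, adult cows that had already calved several times and were scheduled for slaughter. Of these, 6 control animals were fed a total mixed ration (TMR) and 6 treated animals were fed a TMR of which freshly cut ryegrass formed 30%. Both diets had the same protein and energy, but the amounts of silage, hay, soybean meal and concentrate differed along with the ryegrass, so that the green feed and these other components cannot be told apart. Each animal gave 1 piece of frozen rumen wall and 1 stranded total RNA library. The question was whether the green feed was accompanied by other transcript levels of these genes.

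Mucins are large proteins with stretches that are densely coated with O-linked sugars. Some are secreted by goblet cells and mucous glands and form the mucus gel, while others, among them MUC1, MUC4, MUC15, MUC16 and MUC20, cross the plasma membrane of epithelial cells and coat their surface. In glandular mucosae, PIGR, the polymeric immunoglobulin receptor, carries IgA and IgM made by plasma cells across the epithelium. DMBT1 is a secreted scavenger receptor glycoprotein that binds bacteria, and LTF, lactoferrin, is an iron-binding antimicrobial protein of milk, of other secretions and of neutrophil granules. The rumen is lined by a keratinized, stratified squamous epithelium and has no mucous glands.

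The values were FPKM, the fragments of a gene scaled to its length and to the counted fragments of the library. The libraries held between 10531541 and 12948372 counted fragments, and 3 reads in an animal were taken as the floor under which a level cannot be told from 0 (3 reads are the upper limit that a count of 0 allows, for counting error only). Among the markers of squamous epithelium the highest were KRT13 at 1572 ± 667 FPKM and KRT5 at 1493 ± 566 FPKM (SD, n = 12). Some were low, with DSG1 at 3.48 ± 3.32 FPKM and KRT4 at 0.494 ± 0.511 FPKM, and KRT14 and DSC2 had no row. The summed FPKM of the squamous markers was 3153 to 6782 in the control and 3951 to 6801 in the treated animals. Of 9 genes of goblet cells and mucous glands, 4 were listed at 0 in every animal, among them the secreted mucins MUC2 and MUC6. The epithelial genes EPCAM, at 58.3 ± 20.2 FPKM, and KRT19, at 213 ± 110 FPKM, were well measured, while KRT18 and VIL1 were listed at 0. On the first principal component, control replicate 6 and treated replicate 6 stood apart from the other 10 animals. Their median correlations with the other animals were 0.874 and 0.876, against 0.892 to 0.905 for the others, and results that rest on them are also given without them. The 10 markers of smooth muscle all had lower mean log2 values in the treated group, with a median log2 fold change of -0.75, and so did all 6 fibroblast markers, with a median of -0.66. In whole tissue, fewer cells of a type and less RNA per cell cannot be told apart.

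The genes examined were expressed at low levels in the rumen wall. Of their 84 values, 33 were at 0 reads, 19 were at 1 to 3 reads and 32 were above 3 reads. Together they held 655 reads over the 12 animals, from 14 reads in treated replicate 4 to 139 reads in control replicate 6. Mean levels over all animals were 0.643 FPKM for MUC20, 0.216 FPKM for MUC15, 0.161 FPKM for MUC4, 0.0909 FPKM for MUC1, 0.0625 FPKM for DMBT1, 0.0124 FPKM for LTF and 0.00755 FPKM for PIGR. All of these lay below 1.39 FPKM, the median level of the genes above 0. MUC20, the highest, stood at percentile 42.1 of those genes and PIGR, the lowest, at percentile 5.53.

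**Figure D1:**
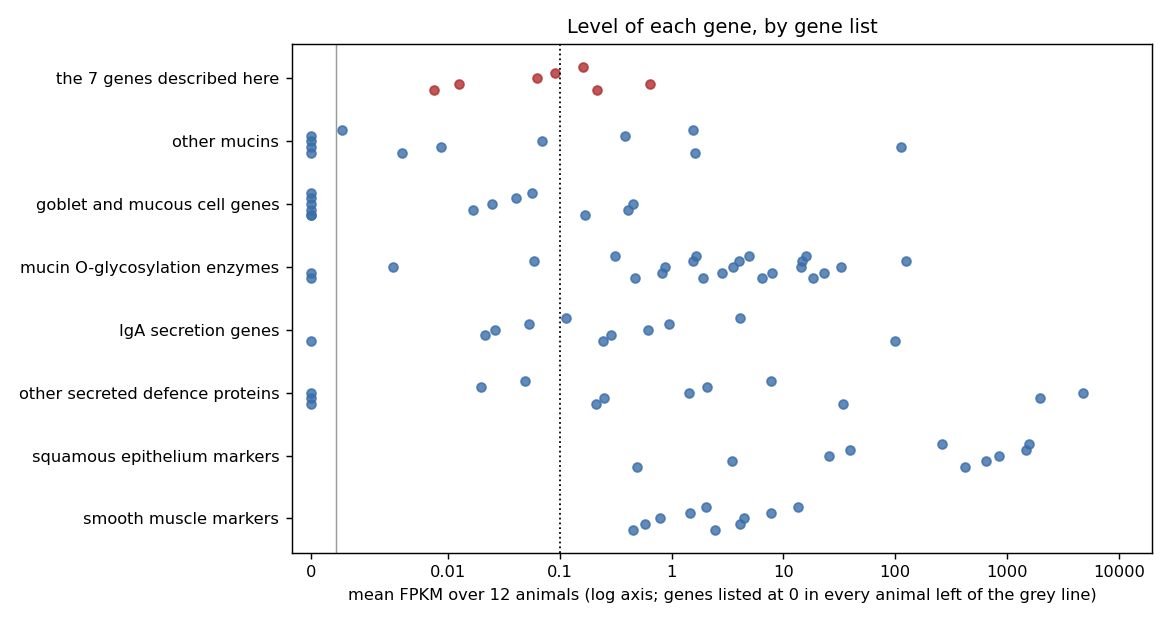
Mean FPKM over 12 animals of each gene, on a log axis, for the 7 genes examined and for fixed lists of related genes and tissue markers, with 1 point a gene. The dotted line is the minimum of 0.1 FPKM for a gene to be tested, and points left of the grey line are genes listed at 0 in every animal. The 7 genes lie between 0.00755 and 0.643 FPKM, with 4 of them under the minimum, while squamous markers reach above 1000 FPKM.

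By mean log2 level the order was MUC20, MUC15, MUC4, MUC1, DMBT1, LTF and PIGR. MUC20 was above MUC15 in 10 of 12 animals, by a mean of 1.62 ± 2.63 on the log2 scale (SD, n = 12, two-sided exact sign-flip permutation p = 0.0581, 0.349 after Benjamini-Hochberg adjustment over 6 neighbour pairs). MUC15 and MUC4 differed by a mean of 0.03, with MUC15 above MUC4 in 7 of 12 animals (exact permutation p = 0.953). MUC4 was above MUC1 in 8 of 12 animals, with a mean difference of 1.35 ± 2.76 (exact permutation p = 0.119, adjusted 0.356). None of the 6 neighbour pairs differed beyond the spread between animals after adjustment, and MUC15 and MUC4 changed places when ordered by median FPKM. The order came from these same values, so only the closest genes were compared, and genes further apart were not tested.

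MUC20, a membrane-bound mucin, was the only one of the genes with reads above the floor in all 6 treated animals, and it was above the floor in 4 of the 6 control animals. Its FPKM in the control group was 0.0269 at the lowest, 0.467 at the median and 2.38 at the highest. In the treated group it was 0.115 at the lowest, 0.540 at the median and 1.36 at the highest. The highest control animal was replicate 6, with 72 of the 139 MUC20 reads of its group, and all treated values lay inside the control range. Means were 0.709 ± 0.874 FPKM in the control and 0.577 ± 0.468 FPKM in the treated group (SD, n = 6 each). All fold changes here were computed on the log2(FPKM + 0.01) scale. It can understate changes of low genes, and can overstate them where some animals are at 0 reads. On this scale the MUC20 difference treated minus control was 0.38 (SE 0.97, 95% interval -1.71 to 2.48, limma p = 0.700, exact permutation p = 0.736). The mean FPKM was lower and the mean log2 value higher in the treated group, so that the direction depends on the scale. Without control replicate 6 the control mean was 0.375 ± 0.344 FPKM (n = 5) and the log2 difference was 0.96 (exact permutation p = 0.370).

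MUC15, a membrane-bound mucin first known from milk fat globule membranes, was above the floor in all 6 control animals and in 3 of the 6 treated animals. Its FPKM in the control group was 0.0791 at the lowest, 0.152 at the median and 1.25 at the highest. In the treated group it was 0 at the lowest, 0.0748 at the median and 0.281 at the highest. Control replicate 5 was far above the others, with 60 of the 96 reads of its group, and 3 treated animals lay below every control animal. The groups overlapped, since treated replicate 6, with 14 of the 28 treated reads, lay above all control animals but replicate 5. Means were 0.336 ± 0.453 FPKM in the control and 0.0966 ± 0.101 FPKM in the treated group (SD, n = 6 each). The log2 difference was -1.70 (SE 0.87, 95% interval -3.57 to 0.17), which did not pass the nominal threshold (limma p = 0.0717, adjusted p = 0.9997, exact permutation p = 0.0866). On the FPKM scale the exact permutation p was 0.160. The paper, with edgeR on the same animals, listed MUC15 as lower in the treated group at a nominal threshold. No gene passed adjustment there. With voom, run on whole reads, the log2 difference was -1.67 and did not pass the nominal threshold. The paper's fit differed from the main fit here in its input, normalization and filter as well as in the test. Since edgeR was not run here, why MUC15 passed the threshold only in the paper was not tested.

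The MUC15 difference depended on single animals. Without control replicate 5 the control mean was 0.152 ± 0.0665 FPKM (n = 5) and the log2 difference -1.19 (limma p = 0.174, exact permutation p = 0.180). Without treated replicate 6, one of the animals that stood apart, it was -2.12 (limma p = 0.0288, exact permutation p = 0.0173). When control replicate 6 was left out as well it was -2.27 (limma p = 0.0293, exact permutation p = 0.0238). Its direction was the same with any 1 animal left out, between -2.12 and -1.15.

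MUC4, a large membrane mucin that can bind the receptor ERBB2, was above the floor in 4 animals of each group. Its FPKM in the control group was 0.0242 at the lowest, 0.185 at the median and 0.285 at the highest. In the treated group it was 0.0129 at the lowest, 0.0980 at the median and 0.435 at the highest. The treated animals spread wider than the control animals, with 2 of them above and 1 below every control value. Means were 0.155 ± 0.101 FPKM in the control and 0.167 ± 0.173 FPKM in the treated group (SD, n = 6 each). The log2 difference was -0.26 (SE 0.85, 95% interval -2.08 to 1.57, limma p = 0.767, exact permutation p = 0.792), against a slightly higher treated mean in FPKM, so that here too the direction depends on the scale. MUC4 and MUC20 are direct neighbours in the RefSeq annotation of the NDDB_SH_1 assembly, which is not the build of the deposited table.

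MUC1, a widely expressed membrane mucin of glandular epithelia, was above the floor in 2 control animals and in no treated animal. Its FPKM in the control group was 0 at the lowest, 0.113 at the median and 0.398 at the highest, with 19 reads in all. In the treated group it was 0 at the lowest, 0.0207 at the median and 0.132 at the highest, with 6 reads in all. At most 5 reads stood behind every value but that of control replicate 2, and 2 control and 3 treated animals were at 0. MUC1 was below the minimum level for testing, and in a fit of every gene above 0 its log2 difference was -1.26 (SE 1.09, limma p = 0.269, exact permutation p = 0.297). With pseudocounts of 0.1 and 1 it was -0.58 and -0.12, and without control replicate 2, which held 9 of the 19 control reads, it was -0.75. With the smooth muscle score as a covariate it was -2.93, at a nominal limma p of 0.0260.

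DMBT1 was high in single animals and at 0 in most. In the control group 3 animals were at 0 and the others had 2, 16 and 57 reads, the last, control replicate 6, at 0.536 FPKM. In the treated group 5 animals were at 0 and treated replicate 3 had 9 reads, at 0.0742 FPKM. Thus 1 animal held 76.0% of the control reads and 1 animal held 100% of the treated reads. Means were 0.113 ± 0.213 FPKM in the control and 0.0124 ± 0.0303 FPKM in the treated group (SD, n = 6 each), and the log2 difference in the fit of every gene above 0 was -1.30 (SE 1.02, limma p = 0.224, exact permutation p = 0.303). Without control replicate 6 the control mean was 0.0280 ± 0.0545 FPKM (n = 5), and the log2 difference was -0.51 (exact permutation p = 0.576).

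PIGR and LTF did not rise above the floor in any animal. PIGR was at 0 in all 6 control animals and had 3 reads in treated replicate 1 and 1 read in treated replicate 4, at 0.0681 and 0.0225 FPKM. At this depth a PIGR level below 0.0629 to 0.0774 FPKM, depending on the animal, could not be told from 0. LTF had 1 read in control replicate 1, 1 in treated replicate 4 and 2 in treated replicate 5, the last at 0.0759 FPKM, and for this shorter gene the floor was at 0.104 to 0.128 FPKM. No fold is given for PIGR and LTF, and a difference between the groups was not detectable for either (exact permutation p = 0.455 for each).

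**Figure D2:**
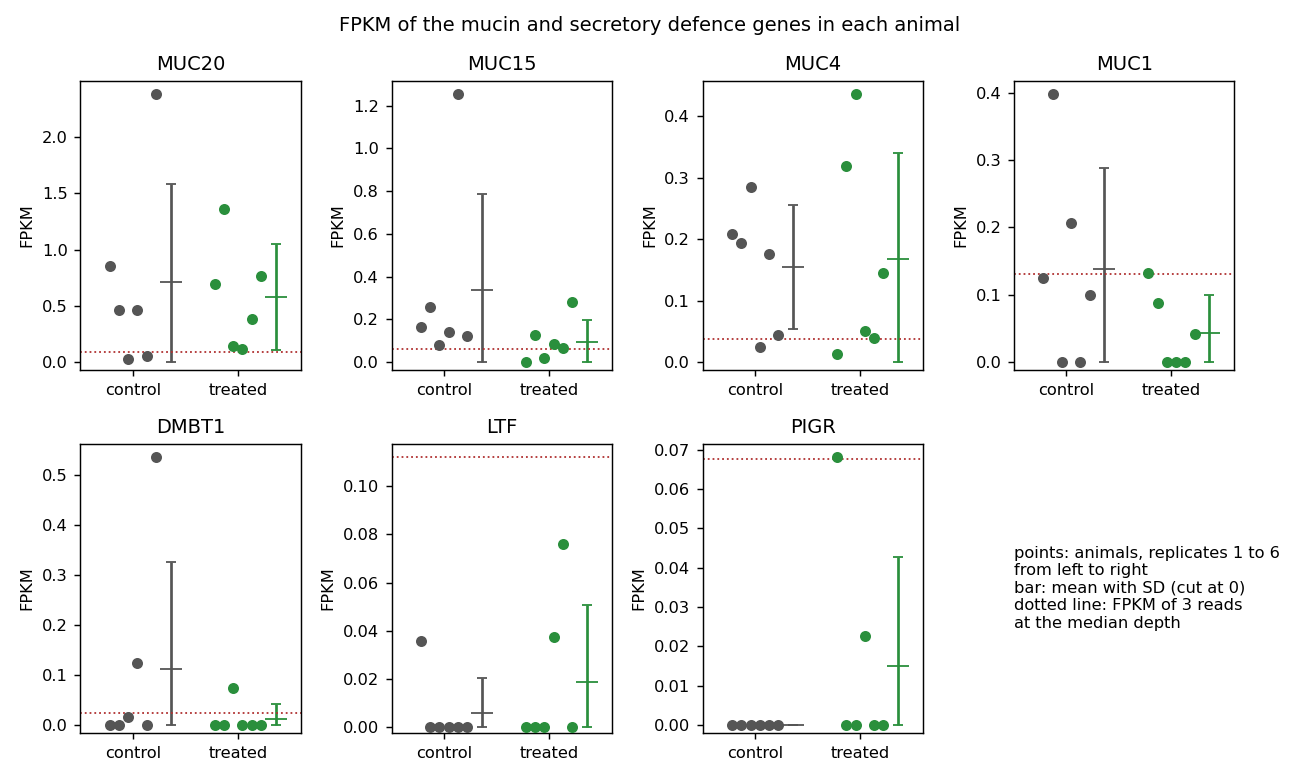
FPKM of the 7 genes in each of 6 control and 6 treated animals, with a separate linear axis for each gene. Points are animals, bars are means with SD and the dotted line is the FPKM of 3 reads at the median depth. Single animals set the top of MUC15, MUC20 and DMBT1 in the control group (1.25, 2.38 and 0.536 FPKM), and LTF lies under the dotted line in every animal.

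The tests across genes gave the background for these values. MUC20, MUC15 and MUC4 passed the minimum mean of 0.1 FPKM and were tested among 17177 genes with limma and Benjamini-Hochberg adjustment, while MUC1, DMBT1, LTF and PIGR did not pass it. None of the 3 had a nominal p under 0.05, against 346 of all genes tested, or 2.01%, of which 187 were higher in the treated group (1.09%) and 159 lower (0.926%). At an adjusted p under 0.05, limma called 0 genes, or 0%, and voom, run on whole reads, also called 0, with 329 genes at a nominal p under 0.05. In the fit of every gene above 0, 562 of 22972 genes had a nominal p under 0.05 (2.45%), and none of the 7 genes examined was among them. The control and treated values did not overlap in 11 of the 17177 genes (0.064%), and they overlapped in each of MUC20, MUC15 and MUC4. Within groups the SD of the log2 level was 1.88 for MUC20, 1.54 for MUC15 and 1.48 for MUC4, against a median of 0.47 over the genes tested. For MUC20 and MUC4 the 95% intervals of the log2 difference were -1.71 to 2.48 and -2.08 to 1.57. Changes within these limits could not be resolved in either direction. For MUC15, and in the fit of every gene above 0 for MUC1 and DMBT1, they were -3.57 to 0.17, -3.60 to 1.09 and -3.49 to 0.89. Decreases of several fold could thus not be excluded for MUC15, MUC1 and DMBT1, while rises were limited to the upper values.

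**Figure D3:**
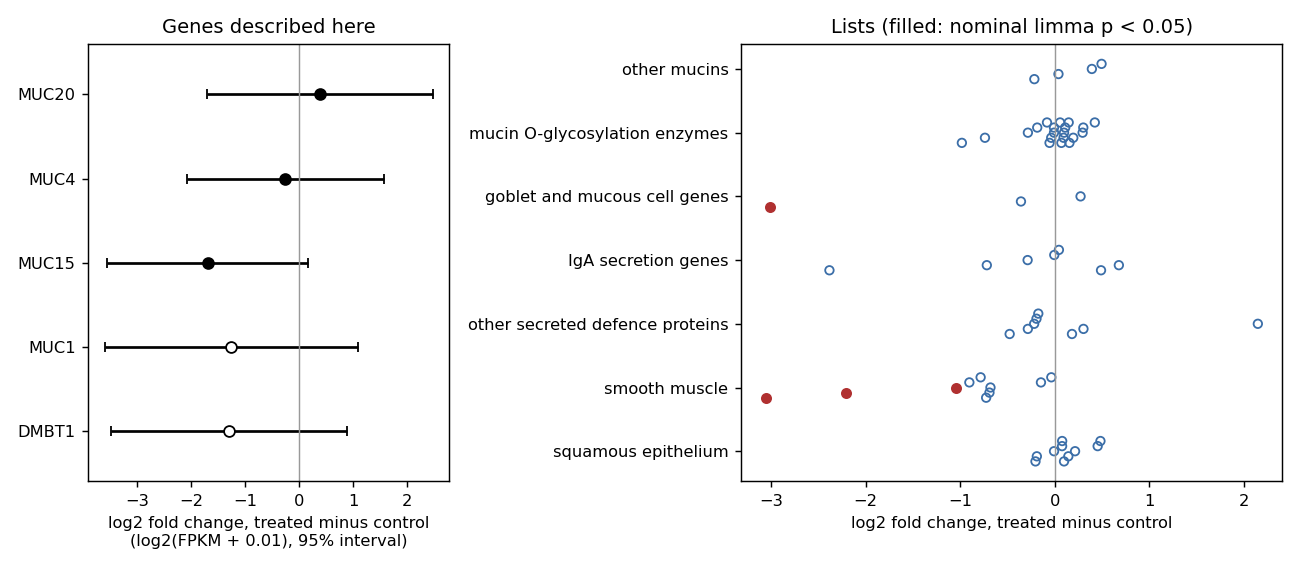
Log2 fold change, treated minus control, on the log2(FPKM + 0.01) scale. Left, 5 of the genes examined with 95% intervals from limma (filled points passed the minimum level, open points are from the fit of every gene above 0); right, the tested genes of the fixed lists, filled where the nominal limma p was under 0.05. All 5 intervals include 0, and MUC15, at -1.70, comes nearest to leaving it out.

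**Figure D4:**
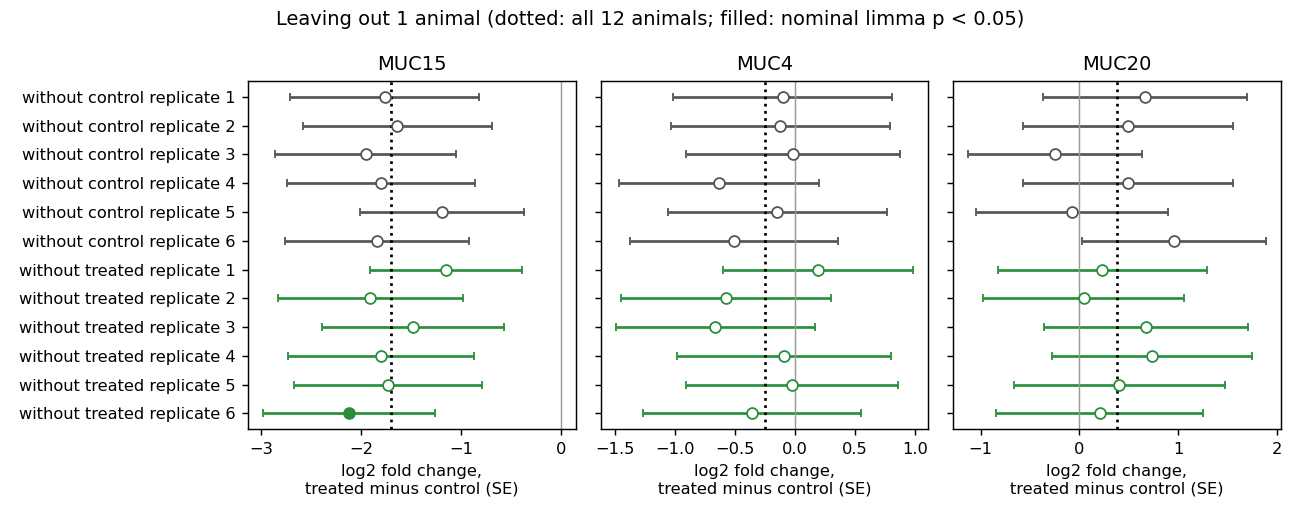
Log2 fold change with its SE for MUC15, MUC4 and MUC20 after leaving out 1 animal at a time, with the value of all 12 animals as a dotted line and a filled point where the nominal limma p was under 0.05. MUC15 stays below 0 throughout, and is filled without treated replicate 6 only, while MUC4 and MUC20 cross 0.

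No pair of MUC4, MUC15 and MUC20 passed a permutation test of their correlation over the animals. The Pearson r of log2 levels over 12 animals was 0.338 for MUC4 with MUC15 (permutation p = 0.290, Spearman rho 0.140, p = 0.667). It was -0.152 without the 2 animals farthest from the median of MUC15. For the neighbouring genes MUC4 and MUC20 it was -0.297 (permutation p = 0.345, rho -0.112, p = 0.732), with -0.570 within the control and 0.0107 within the treated group. It was -0.0671 without the 2 animals farthest from the median of MUC20. For MUC15 with MUC20 it was -0.121 (permutation p = 0.712, rho 0.161, p = 0.620), and 0.261 without the 2 animals farthest from the median of MUC20. With 27 relations to marker scores of 9 cell types and these 3 pairs, 30 relations were computed, and the lowest adjusted p was 0.665 for r and 0.817 for rho. The genes whose log2 levels had the highest Pearson r with each of these over the 12 animals are given as a description. They were picked for their r among all genes tested, so that high values arise by chance, and none was tested. They were LOC102393484 (r = 0.914), LOC112581834 (r = 0.883) and LOC112581422 (r = 0.879) for MUC4, CLDN23 (r = 0.806), ME3 (r = 0.798) and LOC102409375 (r = 0.794) for MUC15, and EIF3J (r = 0.923), ZBTB14 (r = 0.903) and PTPRZ1 (r = 0.900) for MUC20. LOC102393484, LOC112581422 and ME3 were themselves measured with at most 11 reads in an animal.

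Most other mucins were as low or lower, but CD164, OVGP1 and EMCN lay above MUC20, the highest of the genes examined. Of 16 names, 12 had a row, 4 of these were listed at 0 (MUC2, MUC3A, MUC6 and MUC7), and 4 passed the minimum level. The gel-forming mucins MUC5AC and MUC5B had 13 and 12 reads over all animals. The highest was CD164, an endolysosomal sialomucin found in many cell types, at 114 ± 18.1 FPKM (n = 12), with a log2 difference of -0.21 (limma p = 0.118). The next were OVGP1, the oviductal glycoprotein, at 1.62 ± 0.589 FPKM, and EMCN, at 1.56 ± 0.711 FPKM. MUC21, a membrane mucin of squamous epithelia, ranged from 0 to 1.61 FPKM. None of the 4 had a nominal p under 0.05, and their median log2 difference was 0.22, against 0.00 over all genes tested.

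Most enzymes that build the sugars of mucins were above the minimum level. Of 26 genes, 24 had a row, GALNT5 and ST6GALNAC1 were listed at 0 and 20 passed the minimum level, and 0 of the 20 had a nominal p under 0.05, with 11 log2 differences above and 9 below 0 and a median of 0.07. The highest were ST6GALNAC2, which adds sialic acid, at 125 ± 20.4 FPKM, and GALNT1, which starts O-linked chains, at 32.6 ± 5.44 FPKM (n = 12). The summed FPKM of these enzymes was 258 to 292 in the control and 269 to 307 in the treated animals, so that the groups overlapped. These enzymes also act on proteins other than mucins.

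Of 14 genes of goblet and mucous cells, 13 had a row, 6 of these were listed at 0 and 3 passed the minimum level, namely CREB3L1 at 0.454 ± 0.202 FPKM, TFF3 at 0.404 ± 0.619 FPKM and AGR2 at 0.169 ± 0.242 FPKM (n = 12). AGR2, a protein disulfide isomerase needed for mucin folding, was at 0.311 ± 0.281 FPKM in the control and 0.0273 ± 0.0423 FPKM in the treated group (n = 6 each). Its log2 difference of -3.01 (SE 1.13) had a nominal limma p of 0.0193 and an exact permutation p of 0.0476, but did not pass adjustment over all genes. This gene held 25 reads over all animals, with at most 8 in 1 animal, and no treated animal was above the floor, so that the size of its difference depends on the pseudocount.

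The IgA secretion list held JCHAIN and genes linked more broadly to plasma cells and IgA, not only partners of PIGR. All 11 genes had a row, 7 passed the minimum level and 0 of them had a nominal p under 0.05, with a median log2 difference of -0.00. The highest were SDC1, a heparan sulfate proteoglycan of epithelia and plasma cells, at 100 ± 12.3 FPKM, and JCHAIN, the joining chain of polymeric IgA and IgM, at 4.06 ± 3.82 FPKM (n = 12). JCHAIN was at 4.75 ± 4.22 FPKM in the control and 3.37 ± 3.62 FPKM in the treated group (n = 6 each, limma p = 0.347, exact permutation p = 0.403), so that JCHAIN had reads in all 12 animals and PIGR in 2. The summed FPKM of 8 plasma and B cell markers was 2.77 to 12.9 in the control and 1.47 to 11.03 in the treated animals, and POU2AF1 and CD79B were listed at 0.

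Of 20 other secreted defence proteins, 13 had a row and 8 passed the minimum level, and 0 of the 8 had a nominal p under 0.05 (median log2 difference -0.18). S100A8 and S100A9, which form the antimicrobial protein calprotectin, were the highest, at 4759 ± 1990 and 1986 ± 1004 FPKM (n = 12), and both are made by squamous epithelia as well as by neutrophils. Of 12 neutrophil markers, 10 had a row, 5 passed the minimum level and 0 of these had a nominal p under 0.05. Beside S100A8 and S100A9, the chemokine receptor CXCR2 was at 2.67 ± 1.18 FPKM and the cytokine receptor CSF3R at 0.569 ± 0.320 FPKM, both with reads in all 12 animals, and the protease MMP9 had reads in 9 animals. ELANE had 3 reads in all, and MPO, MMP8, CD177 and PGLYRP1 were listed at 0, beside the 4 reads of LTF. Of the 10 smooth muscle markers, 3 had a nominal limma p under 0.05, against 0.926% of all genes tested that were lower in the treated group at this threshold. These were DES (limma p = 0.0295, exact permutation p = 0.0519), CNN1 (limma p = 0.0181, exact permutation p = 0.0238) and ACTG2 (limma p = 0.0249, exact permutation p = 0.0238), and none of them passed adjustment over all genes. The list was chosen with earlier results known, and markers of the same tissue may vary together, so the 3 cannot be counted as independent calls. Over 12 animals the smooth muscle score had an r of 0.0575 with MUC4, 0.258 with MUC15 and -0.394 with MUC20 (permutation p = 0.855, 0.421 and 0.206). For MUC20 it was 0.0412 within the control and -0.902 within the treated group (exact permutation p = 0.921 and 0.0208). The plasma and B cell score had an r of -0.899 with MUC20 within the treated group (exact permutation p = 0.0167). The glandular or columnar epithelium score had an r of 0.846 with MUC4 within the control group (exact permutation p = 0.0417). These were picked from many relations within groups. No relation passed adjustment. Whether the amount of smooth muscle set the values of the genes examined was not tested. In a fit with the smooth muscle score as a covariate, the log2 difference of MUC15 kept its sign and that of MUC20 was -0.66, against 0.38 without the score.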

How the data were processed

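Rumen wall RNA from 6 control and 6 treated buffaloes was sequenced as stranded total RNA libraries. The authors checked reads with FastQC 0.11.5, trimmed them with Trimmomatic 0.39, used STAR 2.5.2b for alignment to UOA_WB_1 and featureCounts 2.0.0 for strand-specific gene counts, and named edgeR for their own tests. The deposited values are FPKM made by the authors. The tool and gene lengths behind them are not given in the sources used here. The table holds 16 value columns, of which 4 matched no sample and were not used.

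The FPKM of a gene differ between animals in steps of 1 read. Whole reads and gene lengths were solved from these steps and return the FPKM of all 22972 genes above 0 within a relative error of 1e-06. The reads cover at least 99.9993% of the counted fragments.

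Groups were compared with limma 3.58.1 in R 4.3.3 (lmFit, eBayes with a trend) on log2(FPKM + 0.01), over genes with a mean of at least 0.1 FPKM in 12 animals, with Benjamini-Hochberg adjustment. Genes under the minimum were taken from a fit of every gene above 0. A two-sided exact permutation test over 924 assignments, with 0.00216 as its smallest p, was used for single genes. Other steps used Python 3.11.15, numpy 2.4.6, scipy 1.17.1, pandas 2.3.3 and matplotlib 3.10.9. The fits were tested on simulated data.

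The genes examined and all lists were chosen with earlier results of these data known. Named are the genes examined, in each list those with a nominal p under 0.05 and the 2 with the highest mean FPKM, and for each gene examined that passed the minimum the 3 genes with the highest Pearson r. Genes named as listed at 0, CXCR2, CSF3R, MMP9, ELANE, MUC5AC, MUC5B, MUC21, EMCN, KRT4, DSG1, KRT14 and DSC2 were named after their values were seen. Alternatives were pseudocounts of 0.1 and 1, other filters including a read threshold like that of the study, median ratio scaling, robust empirical Bayes, voom, the replicate number as a block, marker scores as covariates and each animal left out. Leaving out control and treated replicate 6 together was chosen after seeing the data.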

Additional observations from a re-analysis of the deposited data

Results flagged for a closer look

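In 13 groups of 6 animals the highest or lowest value was set against the others by Dixon's test of the gap over the range at the 95% level, and 6 values of 5 genes lay beyond it. That level holds for normally distributed values. These values are low and uneven between animals, so the share of groups marked by chance is not known. Groups in which most animals are at 0 are marked by few reads. MUC15 in control replicate 5 was at 1.25 FPKM (60 reads, gap over range 0.848). MUC20 and DMBT1 were both highest in control replicate 6, at 2.38 FPKM (72 reads, 0.646) and 0.536 FPKM (57 reads, 0.767), and this animal also stood apart over all genes. DMBT1 in treated replicate 3 was at 0.0742 FPKM (9 reads, with the other 5 animals at 0). PIGR in treated replicate 1 was at 0.0681 FPKM, which is 3 reads, and LTF in control replicate 1 at 0.0358 FPKM, which is 1 read, and neither exceeds the floor.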

How the results depend on the processing

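Of the genes examined that passed the minimum level, none had an adjusted limma p under 0.05 under the 12 other settings or with any 1 animal left out. The number of these with a nominal p under 0.05 was 0 under 11 other settings and 1, MUC15, without control and treated replicate 6 together. It ranged from 0 to 1 with 1 animal left out, the 1 being MUC15 without treated replicate 6. Over all genes tested, 346 nominal calls became 562 with no filter and 157 with the study's read threshold, which changes the number of genes tested. They became 515 without both replicates 6, and 318 to 500 with 1 animal left out. Adjusted calls over all genes were 0, with a range of 0 to 1 when 1 animal was left out (1 without control replicate 4 and 1 without treated replicate 1).

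MUC15 kept its direction in all settings, from -2.27 to -0.24, the latter with a pseudocount of 1. MUC4 reversed to 0.0070 with a pseudocount of 1, and MUC20 to -0.039 with a pseudocount of 1 and to -0.66 with the smooth muscle score, and the cause was not tested. With 1 animal left out MUC4 ranged from -0.67 to 0.19 and MUC20 from -0.24 to 0.96. On the FPKM scale the exact permutation p, with the direction of the difference turned, was 0.922 for MUC4 and 0.784 for MUC20. With 1 animal left out the exact permutation p was 0.429 to 0.989 for MUC4, 0.370 to 0.968 for MUC20 and 0.0173 to 0.180 for MUC15. With the smooth muscle score MUC1 was at -2.93, past a nominal limma p of 0.05 in the fit of every gene above 0. LTF also passed it there, but no fold is given, since its 4 reads did not rise above the floor in any animal. By median FPKM, 2 places in the order of levels changed.

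Same-numbered animals of the groups correlated by -0.00165 to 0.187, with 2 of 6 pairs over 0.1. Their mean correlation was 0.0821, against -0.0162 for other pairs, and 3 control animals correlated best with their own number. The labels name no pairing, so the main fit was not paired. Whether the numbers mark pairs was not tested. The numbers are those of the sample descriptions, and the sample titles number control replicate 6 and treated animals differently. With the replicate number as a block, 519 genes had a nominal and 0 an adjusted limma p under 0.05, none of MUC4, MUC15 and MUC20 was among them, and 1 gene of the IgA secretion list was. The block left MUC15 at -1.70. Depth limits these genes, with 33 of their 84 values at 0 reads and 19 at 1 to 3 reads, and so does the spread between animals, with a read variance over mean of 9.02 for MUC4, 20.3 for MUC20 and 25.3 for MUC15.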
